A study of Mus musculus with 8 samples.

Results

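The 38 genes described here encode the enzymes that turn glucose into pyruvate and lactate, the transporters at either end of that route, and the switch that lets pyruvate into the mitochondrion, together with Hif1a. They were chosen by name, and exon reads of all file rows with the same NCBI gene ID were summed. All 38 were found among 21991 genes with exons, and all 38 were among the 12751 genes that had enough reads to be tested. The study sequenced RNA of 2 bone marrow fractions from C57BL/6 mice of 8 to 10 weeks, with 4 libraries of each. HSC, named for hematopoietic stem cells, were CD150+ CD34- Sca1+ c-Kit+ Lineage- cells. HPC, named for hematopoietic progenitor cells, were CD150+ CD34+ Sca1+ c-Kit+ Lineage- cells. The labels give no treatment and no engineered allele for either fraction, and by the labels the fractions share strain, tissue, age and every sort marker except CD34. The protocol states 5000 sorted cells but speaks of stem cells only, and no label ties a library to an animal of its own, so the p-values measure a spread between libraries that may be technical.

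In glycolysis, glucose is taken up, phosphorylated and split, and the fragments are oxidised to pyruvate with a net yield of ATP. Pyruvate is then either reduced to lactate by lactate dehydrogenase and exported, or oxidised in mitochondria by pyruvate dehydrogenase, which pyruvate dehydrogenase kinases switch off and phosphatases switch on. Most steps have several isozymes, encoded by separate genes with different tissue distribution and regulation, and hematopoietic stem cells are known for relying on glycolysis and on pyruvate dehydrogenase kinase activity while quiescent.

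Exon reads numbered 16291733 to 19070313 per HSC library and 18223082 to 20564901 per HPC library. Transcripts of the sort markers met the labels for CD34 but not for CD150. Cd34 averaged 120 ± 15.4 CPM (read counts per library size after TMM scaling) in HSC, against 1276 ± 55.9 CPM in HPC (SD, n = 4 each), and Slamf1, which encodes CD150, 37.6 ± 6.02 CPM in HSC and 3.14 ± 0.736 CPM in HPC. Slamf1 was thus called higher in HSC (log2 change 3.58, adjusted p = 6.6e-09, edgeR) and was low in all 4 HPC libraries, which goes against the CD150+ label of HPC at the transcript level. Surface protein was not measured in these files, and the name HPC is used as the labels give it. Kit was at 924 ± 185 CPM in HSC, against 746 ± 66.4 CPM in HPC, and Ly6a, which encodes Sca1, at 131 ± 15.99 CPM in HSC, against 72.1 ± 8.02 CPM in HPC. Lists of genes of other cell states differed between the fractions too. All 12 G2 and M phase genes were lower in HSC, where they summed to 779 to 906 CPM, against 1963 to 2487 CPM in HPC. The 8 erythroid priming genes had the opposite direction. In bulk RNA, fewer cells of a type and less RNA per cell cannot be told apart.

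Of the 38 genes, 11 were called higher in HSC, 10 were called lower and 17 were not called in edgeR's quasi-likelihood test at an adjusted p of 0.05. Over all genes tested, 37.1% were called, with 19.6% of all genes called higher in HSC and 17.6% called lower. The called share of the 38 lay above that background in both directions. That excess was not tested, and the 38 were chosen with earlier results of these data known. Levels are given with their SD over 4 libraries, and changes, as log2 of HSC over HPC, with their standard error. The median change was 0.08 over the 38 genes and 0.00 over all genes tested. In 10 genes all 4 HSC libraries lay above all 4 HPC libraries and in 11 they all lay below, against a background of 36.7% of all genes tested without overlap. Among the called genes, Pklr, Pdk4, Eno2, Aldoc, Pfkfb2 and Ldhb were at least 2-fold higher in HSC, and Hk3 and Pfkfb1 at least 2-fold lower. The share of all genes tested with changes of that size was not computed. At 4 steps, those of hexokinase, the PFKFB enzymes, pyruvate kinase and pyruvate dehydrogenase kinase, called isozymes lay in opposite directions.

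**Figure D1:**
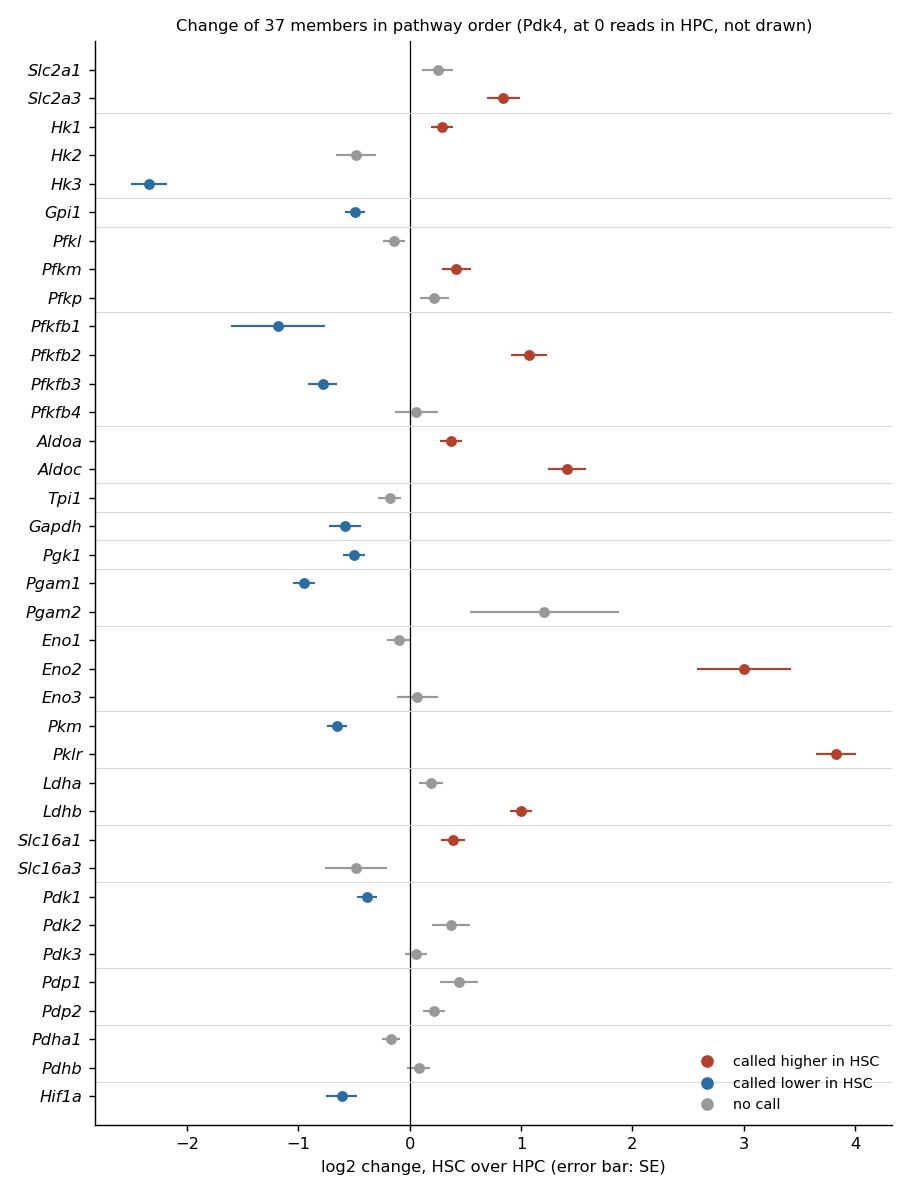
Change of each gene of the group but Pdk4 in pathway order, as log2 of HSC over HPC with its standard error, from edgeR's fit to exon reads of 4 HSC and 4 HPC libraries. Called genes are coloured by direction, and Pklr stands at 3.83 and Hk3 at −2.34, while most genes lie within 1 unit of 0. Pdk4 is not drawn because it had 0 reads in HPC.

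The promoters of the group were searched for the core that hypoxia-inducible factors bind, since many glycolytic genes are known targets. The letters ACGTG or GCGTG, on either strand in the 250 bases before the start, were present in 41 of 56 RefSeq promoters of 36 matched genes (73.2%), against 54.8% of 13098 promoters of genes tested and 38.6% of all 32851 promoters in the table. Searched singly, ACGTG was present in 39.3% of the promoters of the group and in 21.5% of those of genes tested. GCGTG was present in 48.2% and 43.5%, which lie closer together. The E-box CACGTG, which contains ACGTG, was present in 14.3% of the promoters of the group and in 8.18% of those of genes tested. The forkhead element GTAAACA was present in 1.79% of the promoters of the group and in 2.16% of those of genes tested. The direct-repeat PPAR element was found in 0 of 56 promoters of the group and in 0.0305% of those of genes tested. GC content was 58.3% in promoters of the group and 59.5% in those of genes tested. The promoters below are from RefSeq (GRCm38.p6, a patch release of the assembly that mm10 names), 5′ to 3′ on the strand of the gene and without bases that lie in its own transcripts. They are those of the 4 called genes with the largest changes whose remaining bases hold the core, which is in capitals. Pklr and Eno2, whose changes were larger than that of Hk3, held no core in their promoters. Pfkfb1 held it in 1 of its 4 promoters. Aldoc and Pfkfb2, whose changes were larger than that of Ldhb, held it in 2 of 2 and 3 of 3 promoters. They are not shown, because only the most upstream promoter with the core was used. After transcript bases were left out, too few bases or no core remained there. The counts above used the full 250 bases. A match describes letters only.
Pdk4, chr6:5496310-5496528, minus strand: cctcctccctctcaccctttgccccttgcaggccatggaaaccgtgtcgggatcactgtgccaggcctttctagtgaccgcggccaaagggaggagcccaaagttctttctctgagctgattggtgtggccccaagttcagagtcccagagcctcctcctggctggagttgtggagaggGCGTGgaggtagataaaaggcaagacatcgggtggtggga
Hk3, chr13:55021477-55021635, minus strand: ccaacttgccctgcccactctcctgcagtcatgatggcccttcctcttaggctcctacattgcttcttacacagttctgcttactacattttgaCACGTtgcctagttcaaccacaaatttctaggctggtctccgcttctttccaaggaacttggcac
Pfkfb1, chrX:150587993-150588228, plus strand: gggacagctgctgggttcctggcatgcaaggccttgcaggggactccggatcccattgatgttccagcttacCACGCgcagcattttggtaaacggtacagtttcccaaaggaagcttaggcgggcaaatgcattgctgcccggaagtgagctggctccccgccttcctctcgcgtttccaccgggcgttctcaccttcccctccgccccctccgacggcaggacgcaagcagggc
Ldhb, chr6:142507958-142508207, minus strand: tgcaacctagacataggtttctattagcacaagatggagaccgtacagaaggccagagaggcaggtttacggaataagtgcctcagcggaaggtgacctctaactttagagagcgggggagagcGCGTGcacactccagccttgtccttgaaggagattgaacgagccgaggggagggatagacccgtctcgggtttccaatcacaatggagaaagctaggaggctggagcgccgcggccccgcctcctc
The core lies at −71 in Pdk4, −156 in Hk3, −178 in Pfkfb1 and −126 in Ldhb, counted from the RefSeq start. The capitals read GCGTG in Pdk4 and Ldhb and are the reverse complement of a core in Hk3 and Pfkfb1. Any relation of the core or its strand to the direction of change was not tested.

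Of the 2 glucose transporters of the group, Slc2a3 gave most of the pair's transcript per kilobase in both fractions. Its share of the pair was 70.7 ± 5.12% in HSC and 61.8 ± 6.48% in HPC, with overlap. Slc2a3 encodes the high-affinity transporter GLUT3 (NCBI gene 20527, chromosome 6, 122727809 to 122802274, positions here and in what follows being those of mm10). It had 127, 138, 202 and 138 CPM in the 4 HSC libraries and 89.3, 103, 79.0 and 67.7 CPM in the 4 HPC libraries. Every HSC library lay above every HPC library, although HSC replicate 3 stood well above the other HSC libraries. The change was 0.84 ± 0.15 on the log2 scale (SE; adjusted p = 5.7e-04, edgeR), and 0.68 to 0.94 when each library in turn was left out. Slc2a1, which encodes the widespread transporter GLUT1, averaged 35.0 ± 5.54 CPM in HSC, against 29.4 ± 3.24 CPM in HPC, and had no call (adjusted p = 0.19, edgeR). Without HSC replicate 4, its lowest HSC library, it was called higher at 0.36. Together the 2 transporters gave 45.1 ± 7.84 CPM per kilobase of exon in HSC and 28.9 ± 2.27 in HPC (SD, n = 4 each).

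Among the hexokinases, which trap glucose by phosphorylating it, the make-up of the step differed more than its sum. Hk3 (NCBI gene 212032, chromosome 13, 55005985 to 55021476) had 16.1, 17.6, 17.6 and 13.3 CPM in the HSC libraries and 105, 80.3, 63.1 and 79.8 CPM in the HPC libraries. The fractions lay far apart, with HPC 5.08-fold higher (log2 change −2.34 ± 0.16, adjusted p = 4.7e-08, edgeR). Hk3 is the hexokinase known from myeloid cells, and its promoter stretch is shown above. Hk1, the housekeeping isozyme, averaged 324 ± 27.2 CPM in HSC, against 265 ± 25.3 CPM in HPC, and was called higher (0.29 ± 0.10, adjusted p = 0.031, edgeR). That call was lost without HSC replicate 1, 2 or 3 or without HPC replicate 2 or 4, with changes of 0.23 to 0.30. Hk2, the insulin- and hypoxia-responsive isozyme, had 29.3 ± 5.59 CPM in HSC, against 40.7 ± 9.51 CPM in HPC. It missed the threshold narrowly (adjusted p = 0.050, edgeR) and was called lower without HSC replicate 2 (−0.58), HPC replicate 2 (−0.54) or HPC replicate 3 (−0.59).

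Per kilobase of exon, Hk1 made up 86.1 ± 1.55% of hexokinase transcripts in HSC and 61.8 ± 5.21% in HPC. Hk3 made up 6.59 ± 0.368% in HSC and 29.2 ± 3.86% in HPC, and Hk2 7.33 ± 1.42% in HSC and 8.93 ± 2.23% in HPC. The summed level of the step was 70.8 ± 5.56 CPM per kilobase in HSC and 80.8 ± 7.68 in HPC, and the fractions overlapped. Of 7 tested neutrophil and monocyte markers 4 had no call and 3 were lower in HSC. With 2 markers not tested they summed to 192 to 296 CPM in HSC and 319 to 554 CPM in HPC. Most reads were in Lyz2 at 191 ± 32.9 CPM in HSC, against 262 ± 72.5 CPM in HPC. Lyz2 overlapped between the fractions and had no call (adjusted p = 0.062, edgeR). The 3 lower markers had log2 changes of −4.35 to −2.43. All 6 mast cell and basophil markers were lower in HSC, summing to 6.12 to 40.1 CPM in HSC and 85.7 to 209 CPM in HPC, with most reads in Prss34 at 11.6 ± 12.3 CPM in HSC, against 65.8 ± 42.8 CPM in HPC. Of 8 lymphoid markers (B, T and NK cells) 5 were higher and 1 lower in HSC, and they summed to 132 to 169 CPM in HSC and 342 to 434 CPM in HPC, of which Nkg7 had 44.6 ± 8.40 CPM in HSC and 330 ± 40.8 CPM in HPC. No marker of these 3 lists was at 0 reads in all libraries. Their part in the difference in Hk3 was not tested.

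**Figure D2:**
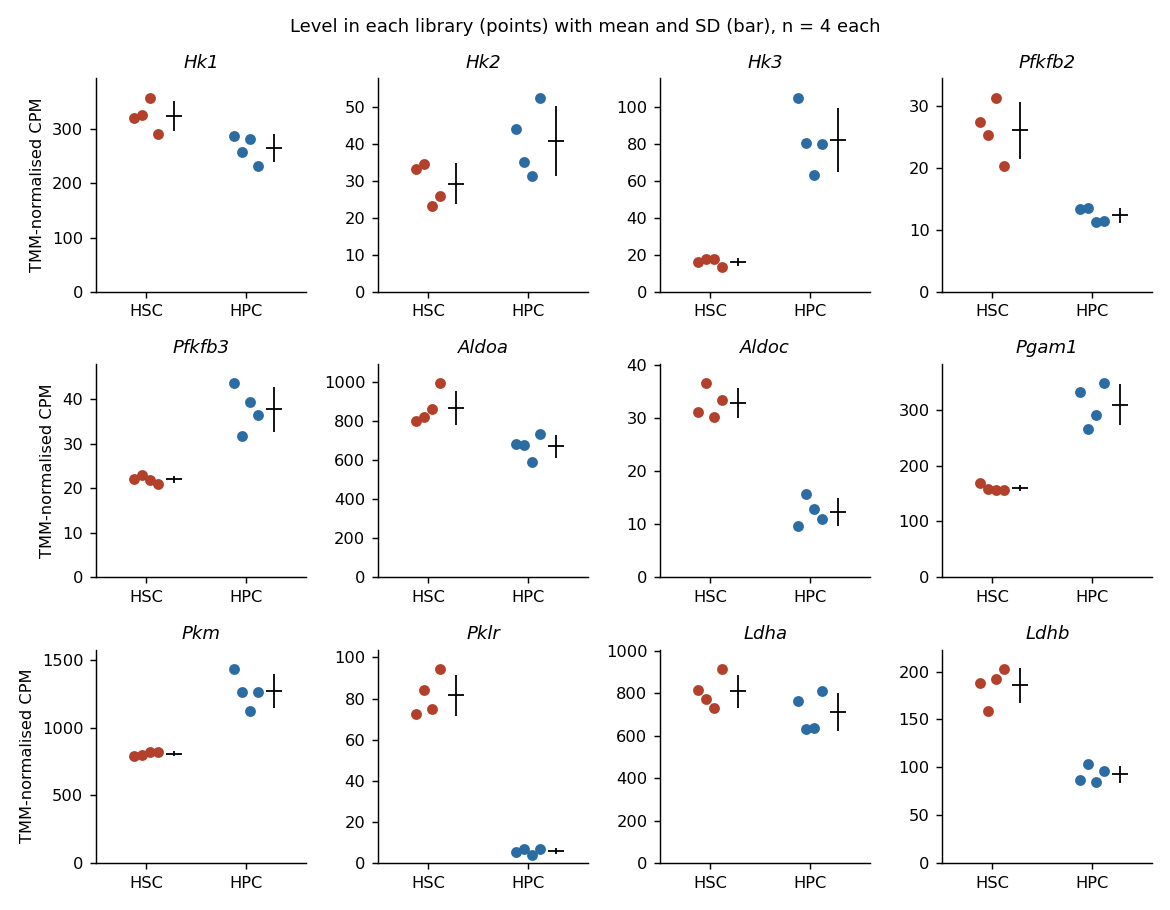
Level of 12 isozyme genes in each of 4 HSC (left) and 4 HPC libraries (right), in TMM-normalised CPM on linear axes from 0; points are libraries and bars the mean and SD. Hk3, Pfkfb3, Pgam1 and Pkm lie lower in HSC, and Pfkfb2, Aldoc, Pklr and Ldhb higher, without overlap.

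At the next step Gpi1, glucose-6-phosphate isomerase, was lower in HSC, with 393 ± 34.8 CPM in HSC, against 550 ± 29.8 CPM in HPC (−0.49 ± 0.09, adjusted p = 7.7e-04, edgeR). The phosphofructokinases, which commit sugar to glycolysis, summed to 91.5 ± 4.70 CPM per kilobase in HSC and 90.4 ± 8.35 in HPC. Pfkl, the liver-type subunit and most abundant of the 3 per length, averaged 232 ± 24.0 CPM in HSC and 255 ± 27.8 CPM in HPC, with no call. Its share was 62.3 ± 3.31% in HSC and 69.5 ± 3.28% in HPC, without overlap. Pfkm, the muscle-type subunit, had 64.8, 64.9, 54.9 and 63.8 CPM in HSC and 56.0, 42.9, 48.0 and 38.4 CPM in HPC. It was called higher in HSC (0.42 ± 0.13, adjusted p = 0.018, edgeR) although HSC replicate 3 lay below HPC replicate 1, and the call was lost without HSC replicate 2 (0.39), HPC replicate 2 (0.38) or HPC replicate 4 (0.34). Pfkp, the platelet-type subunit, averaged 72.1 ± 5.65 CPM in HSC, against 61.8 ± 11.3 CPM in HPC, and had no call. It shares 17.4% of its exon bases with Pitrm1 on the other strand (175 CPM in HSC, 127 CPM in HPC).

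The bifunctional PFKFB enzymes make and break fructose 2,6-bisphosphate, a strong activator of phosphofructokinase, and 2 of them went in opposite directions. Pfkfb2 (NCBI gene 18640, chromosome 1, 130689043 to 130729253) had 27.5, 25.4, 31.4 and 20.4 CPM in the HSC libraries and 13.3, 13.6, 11.4 and 11.4 CPM in the HPC libraries. All HSC libraries were above all HPC libraries, by 2.11-fold on the means (1.07 ± 0.16, adjusted p = 1.1e-04, edgeR). Pfkfb3 (NCBI gene 170768, chromosome 2, 11471430 to 11554071), the isozyme with the highest kinase over phosphatase activity, had 22.0, 23.0, 21.9 and 21.04 CPM in HSC and 43.6, 31.6, 39.3 and 36.3 CPM in HPC. It was lower in every HSC library (−0.78 ± 0.13, adjusted p = 2.8e-04, edgeR).

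Pfkfb2 made up 28.0 ± 3.64% of PFKFB transcripts per kilobase in HSC and 11.2 ± 0.816% in HPC, and Pfkfb3 made up 36.2 ± 1.88% in HSC and 52.3 ± 7.57% in HPC. The 4 genes together summed to 9.68 ± 0.590 CPM per kilobase in HSC and 11.6 ± 1.04 in HPC, with overlap. Pfkfb4 averaged 16.3 ± 1.45 CPM in HSC and 15.6 ± 4.39 CPM in HPC, with no call. Pfkfb1, the liver and muscle isozyme, was scarce at 1.92 ± 0.83 CPM in HSC, against 4.32 ± 1.08 CPM in HPC. It was called lower (−1.18 ± 0.42, adjusted p = 0.039, edgeR), and lost the call without HSC replicate 3 or 4 or HPC replicate 1, 2 or 3, with changes of −1.22 to −0.89. Exons of Pfkfb2 overlap those of Gm29427 on the same strand over 24.7% of their length, and reads of the pair cannot be told apart.

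Both aldolases, which split fructose 1,6-bisphosphate, were higher in HSC. Aldoa had 799, 817, 861 and 991 CPM in HSC, against 681, 675, 591 and 734 CPM in HPC (0.37 ± 0.10, adjusted p = 0.0099, edgeR). Aldoc, the isozyme best known from brain (NCBI gene 11676, chromosome 11, 78323073 to 78327781), had 31.2, 36.6, 30.3 and 33.4 CPM in HSC and 9.62, 15.8, 12.98 and 10.9 CPM in HPC, which is 2.66-fold on the means (1.41 ± 0.17, adjusted p = 1.0e-05, edgeR). Neither gene overlapped between the fractions, yet Aldoc was only 3.30 ± 0.413% of aldolase transcripts per kilobase in HSC and 1.64 ± 0.412% in HPC. The aldolase step summed to 349 ± 33.8 CPM per kilobase in HSC and 265 ± 22.7 in HPC.

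Of the genes of the ATP-yielding stretch below aldolase, Gapdh, Pgk1, Pgam1 and Pkm were lower in HSC, Eno2 and Pklr were higher, and Tpi1, Pgam2, Eno1 and Eno3 had no call. Gapdh, glyceraldehyde-3-phosphate dehydrogenase, averaged 292 ± 52.7 CPM in HSC, against 435 ± 66.9 CPM in HPC (−0.58 ± 0.14, adjusted p = 0.0035, edgeR). Pgk1, phosphoglycerate kinase, averaged 230 ± 13.1 CPM in HSC, against 326 ± 34.4 CPM in HPC (−0.50 ± 0.10, adjusted p = 7.7e-04, edgeR). Pgam1, phosphoglycerate mutase (NCBI gene 18648, chromosome 19, 41911871 to 41918665), had 169, 159, 156 and 157 CPM in the HSC libraries and 333, 266, 291 and 347 CPM in the HPC libraries. The HSC libraries lay within a narrow band, and HPC was 1.93-fold higher (−0.95 ± 0.10, adjusted p = 2.9e-06, edgeR).

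Pkm, which encodes the M1 and M2 forms of pyruvate kinase (NCBI gene 18746, chromosome 9, 59656368 to 59679375), had 791, 801, 822 and 824 CPM in HSC, against 1435, 1267, 1126 and 1265 CPM in HPC (−0.65 ± 0.09, adjusted p = 7.1e-05, edgeR). Gene-level reads do not separate its 2 forms. Tpi1, triosephosphate isomerase, had 230 ± 31.9 CPM in HSC and 260 ± 14.2 CPM in HPC with no call, though it was called lower without HSC replicate 4 (−0.27). Beside these genes, all 12 G2 and M phase genes were lower in HSC with a median of −1.37, among them Top2a with 194 ± 25.2 CPM in HSC and 616 ± 132 CPM in HPC. Their part in the lower levels was not tested.

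Several of these genes are known for processed copies elsewhere in the genome, and many of their reads were not placed uniquely. Only 15.7% of exon reads of Pgam1, 21.2% of Pgk1, 28.5% of Eno1, 21.9% of Eno3 and 65.5% of Gapdh were unique, as were 53.3% of Hif1a, 58.1% of Hk2, 67.1% of Pdha1 and 73.8% of Slc16a3. With unique reads alone Pgam1 was also called lower in HSC at −0.69 and Gapdh at −0.54, whereas Pgk1 had −0.39 and lost its call (adjusted p = 0.055, edgeR). Values for these genes are therefore uncertain in size. Exons also overlap those of another annotated gene over 21.2% of their length in Pdha1, 12.9% in Pkm, 12.3% in Gpi1 and 6.06% in Hif1a.

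Enolase summed to 300 ± 25.6 CPM per kilobase in HSC and 319 ± 25.0 in HPC, nearly all of it Eno1, which had 580 ± 50.7 CPM in HSC, against 623 ± 50.4 CPM in HPC, with no call. Eno3, the muscle isozyme, had 12.3 ± 1.61 CPM in HSC and 11.7 ± 1.11 CPM in HPC, also with no call. Eno2, the neuronal isozyme (NCBI gene 13807, chromosome 6, 124760053 to 124769673), had 10.4, 11.6, 7.24 and 6.43 CPM in HSC and 0.370, 0.795, 1.89 and 1.38 CPM in HPC. The fractions did not overlap, and the means differed 8.02-fold (3.0 ± 0.42, adjusted p = 5.6e-05, edgeR). Even so, Eno2 was 0.893 ± 0.281% of enolase transcripts per kilobase in HSC and 0.107 ± 0.0710% in HPC. Pgam2, the muscle mutase, was below 2 CPM in every library, with 65 reads over the HSC libraries and 28 over the HPC libraries, and had no call.

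Pklr, the liver and red cell pyruvate kinase (NCBI gene 18770, chromosome 3, 89136129 to 89146600), showed the largest fold of the 35 genes with at least 5 CPM in either fraction. It had 72.6, 84.2, 75.1 and 94.4 CPM in the HSC libraries and 5.07, 6.86, 4.07 and 6.91 CPM in the HPC libraries. Every HSC library was more than 10 times above every HPC library, and the means differed 14.2-fold (3.83 ± 0.18, adjusted p = 1.3e-09, edgeR). Pklr was 9.16 ± 0.926% of pyruvate kinase transcripts per kilobase in HSC and 0.449 ± 0.107% in HPC. The step as a whole lay lower in every HSC library, at 304 ± 7.83 CPM per kilobase in HSC and 436 ± 43.3 in HPC, and Pkm was 90.8 ± 0.926% of it in HSC and 99.6 ± 0.107% in HPC. Exons of Pklr overlap those of Hcn3 on the other strand over 23.4% of their length, where Hcn3 had 2.41 CPM in HSC and 2.69 CPM in HPC.

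Erythroid priming genes lay in the same direction as Pklr. Each of 8 erythroid priming genes was called higher in HSC, with a median of 2.31, and together they summed to 7317 to 9418 CPM in HSC and 1890 to 2529 CPM in HPC. Car2 (carbonic anhydrase 2), the gene with most reads, had 5673 ± 695 CPM in HSC, against 1920 ± 236 CPM in HPC. Of 8 red cell markers 4 had no call and 4 were higher in HSC, and they summed to 191 to 467 CPM in HSC and 41.3 to 161 CPM in HPC, with most reads over all libraries in Hba-a1, an alpha globin gene, at 105 ± 56.2 CPM in HSC, against 26.9 ± 21.9 CPM in HPC. Of 6 megakaryocyte and platelet markers 4 were higher and 1 lower in HSC, summing to 251 to 293 CPM in HSC and 156 to 205 CPM in HPC. Itga2b, the gene with most reads over all libraries, was the lower one, with 76.4 ± 10.3 CPM in HSC, against 93.8 ± 6.09 CPM in HPC. Of 4 tested endothelial and stromal markers 3 were higher in HSC, summing with those not tested to 42.9 to 53.2 CPM in HSC and 20.97 to 28.8 CPM in HPC, with most reads in Emcn at 29.4 ± 2.21 CPM in HSC, against 20.8 ± 4.08 CPM in HPC. No marker of these 4 lists was at 0 reads in all libraries, and the part of these cells in the level of Pklr was not tested.

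**Figure D3:**
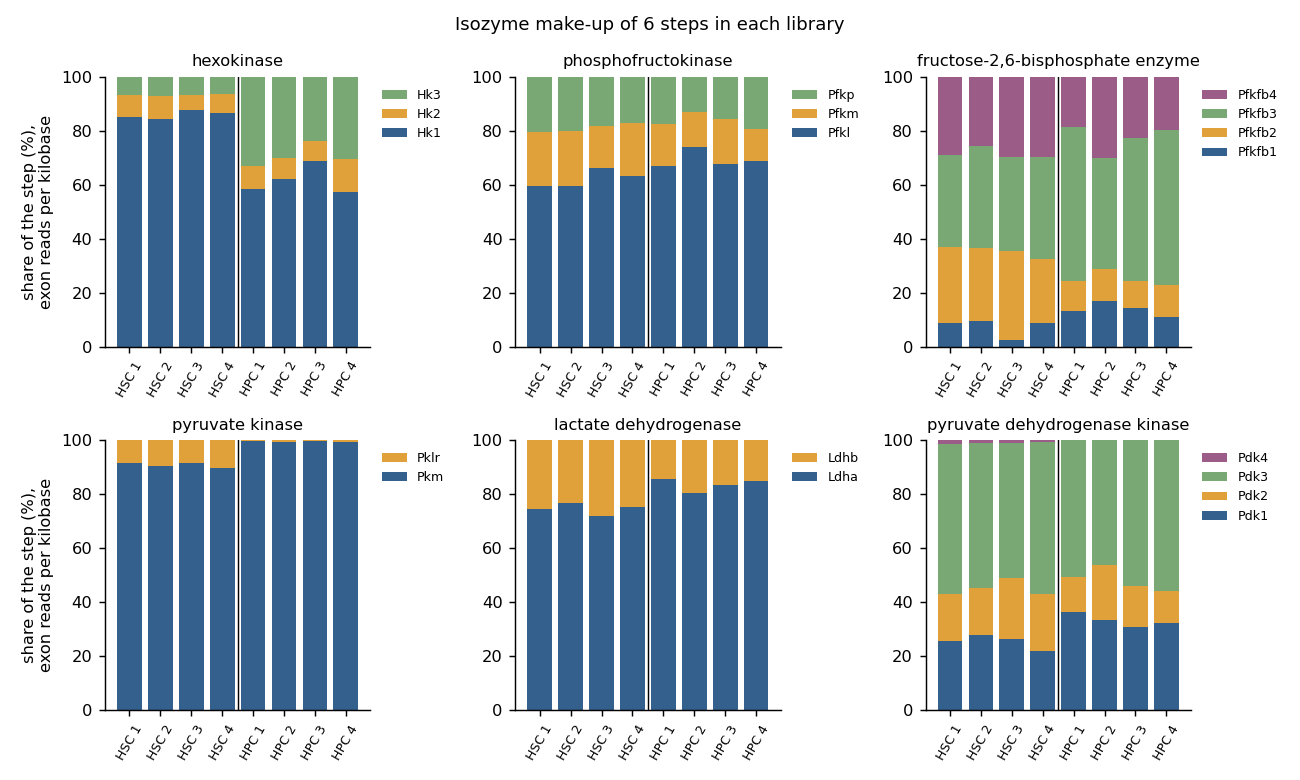
Isozyme make-up of 6 steps in each of the 4 HSC (left of the line) and 4 HPC libraries, as the percent of the step's summed exon reads per kilobase. Hk3 and Pfkfb3 take smaller shares in HSC, and Pklr, Ldhb and Pfkfb2 larger ones.

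Of the lactate dehydrogenase subunits, B was higher in HSC and A had no call. Ldhb, whose subunits favour the oxidation of lactate to pyruvate (NCBI gene 16832, chromosome 6, 142490249 to 142507957), had 188, 159, 192 and 203 CPM in HSC and 87.1, 103, 84.3 and 96.1 CPM in HPC. The fractions lay apart by 2.0-fold on the means (1.0 ± 0.10, adjusted p = 2.7e-06, edgeR). Ldha, whose subunits favour lactate formation, had 817, 774, 734 and 916 CPM in HSC and 764, 634, 636 and 813 CPM in HPC, with overlap and no call (0.19 ± 0.11, adjusted p = 0.21, edgeR). Ldhb made up 25.4 ± 1.94% of the pair per kilobase in HSC and 16.3 ± 2.26% in HPC, without overlap. The pair summed to 562 ± 49.5 CPM per kilobase in HSC and 440 ± 47.2 in HPC.

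Lactate and pyruvate leave or enter the cell through monocarboxylate transporters. Slc16a1, which encodes MCT1, averaged 66.1 ± 7.20 CPM in HSC, against 50.4 ± 2.01 CPM in HPC, and was higher without overlap (0.39 ± 0.11, adjusted p = 0.011, edgeR). Slc16a3, which encodes the lactate exporter MCT4, was scarce at 6.09 ± 2.43 CPM in HSC, against 8.52 ± 0.814 CPM in HPC, and had no call (adjusted p = 0.20, edgeR). MCT4 transcripts were 10.3 ± 3.69% of the pair per kilobase in HSC and 17.3 ± 0.836% in HPC. The transporters' partner glycoproteins went opposite ways, embigin without overlap between the fractions and basigin by a small change with overlap. Emb, embigin, had 62.4 ± 7.07 CPM in HSC, against 328 ± 40.1 CPM in HPC (−2.39, adjusted p = 2.0e-09, edgeR), and Bsg, basigin, had 435 ± 38.7 CPM in HSC, against 353 ± 38.5 CPM in HPC (0.30, adjusted p = 0.031, edgeR; basigin was named after its values were seen).

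**Figure D4:**
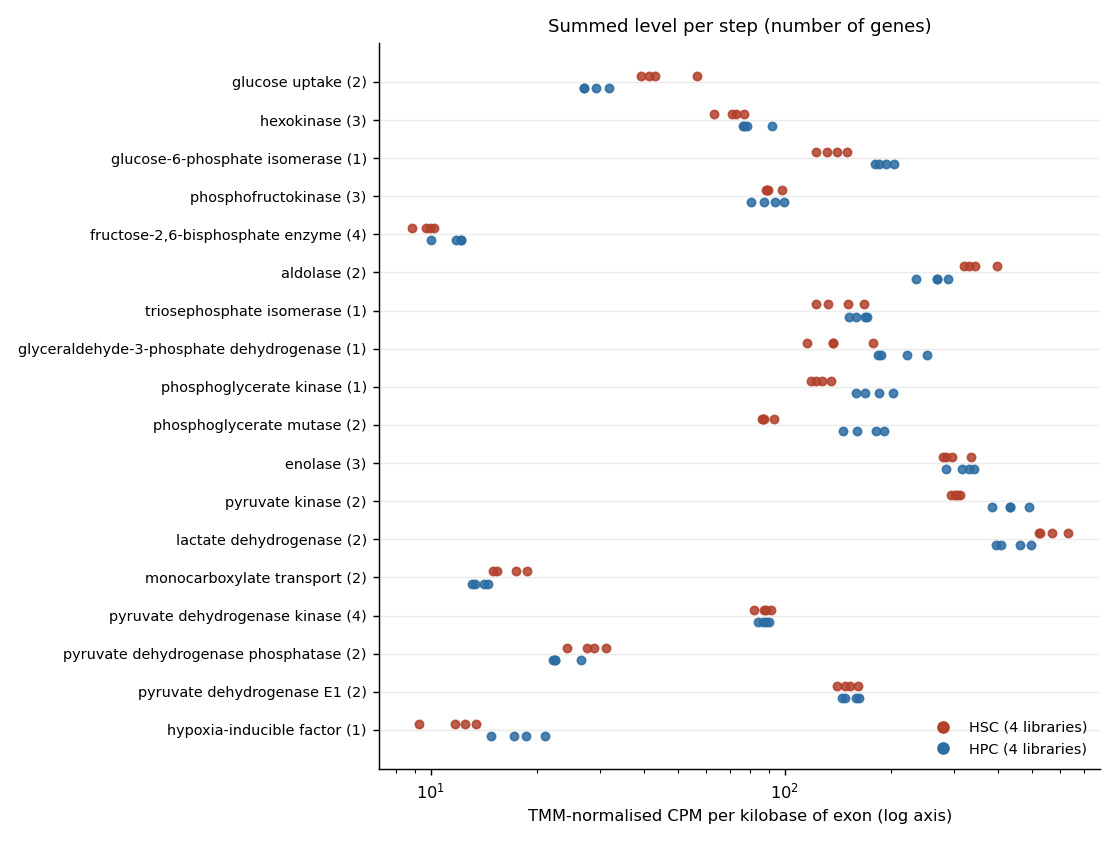
Summed exon reads per kilobase of the genes of each step, in TMM-normalised CPM on a log axis, for 4 HSC (upper row of each pair) and 4 HPC libraries (lower row). Uptake, aldolase, lactate dehydrogenase and monocarboxylate transport lie higher in HSC, phosphoglycerate mutase and pyruvate kinase lower, and phosphofructokinase and pyruvate dehydrogenase kinase overlap.

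At the pyruvate switch, the summed level of the 4 pyruvate dehydrogenase kinases was 87.3 ± 4.09 CPM per kilobase in HSC and 87.4 ± 2.75 in HPC, while 2 members changed in opposite directions. Pdk1, the kinase known as a hypoxia-inducible factor target, had 144, 139, 142 and 119 CPM in HSC, against 188, 182, 164 and 178 CPM in HPC (−0.38 ± 0.09, adjusted p = 0.0041, edgeR), without overlap. Its share of the kinases was 25.4 ± 2.53% in HSC and 33.2 ± 2.41% in HPC. Pdk4 (NCBI gene 27273, chromosome 6, 5483351 to 5496278), the kinase induced by fasting and fatty acids, had 4.23, 2.82, 2.26 and 1.58 CPM in HSC and 0 reads in every HPC library. It was called higher (adjusted p = 3.3e-05, edgeR), and against the 3 reads per library that a count of 0 allows it was at least 17-fold higher. Its 200 reads in HSC made it 0.902 ± 0.352% of the kinases per kilobase. Pdk3, the most abundant per length, averaged 94.3 ± 7.71 CPM in HSC and 90.3 ± 8.34 CPM in HPC. Pdk2 averaged 45.2 ± 6.28 CPM in HSC and 34.8 ± 8.95 CPM in HPC. Neither had a call, and Pdk2 gained one without HPC replicate 2 (0.56).

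The enzyme complex and its phosphatases had no call. Pdp2, the more abundant phosphatase, averaged 129 ± 12.1 CPM in HSC and 111 ± 9.27 CPM in HPC. Pdp1 averaged 24.3 ± 4.71 CPM in HSC, against 18.0 ± 2.79 CPM in HPC (adjusted p = 0.061, edgeR), and was called higher without HSC replicate 4 (0.51) or HPC replicate 2 (0.53). The E1 subunit genes Pdha1 and Pdhb had changes of −0.17 ± 0.08 and 0.08 ± 0.10, with Pdha1 at 188 ± 1.35 CPM in HSC, against 211 ± 11.3 CPM in HPC, and Pdhb at 126 ± 12.8 CPM in HSC, against 119 ± 8.07 CPM in HPC. Every HSC library had less Pdha1 than every HPC library, but the adjusted p was 0.12 in edgeR. Of 7 other tested genes of the mitochondrial pyruvate carrier, the complex and pyruvate carboxylation, 0 were called by edgeR, by DESeq2 or by voom, and 0 had an unadjusted p under 0.05. Their median was −0.08.

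Hif1a, the oxygen-regulated subunit of hypoxia-inducible factor 1 (NCBI gene 15251, chromosome 12, 73901324 to 73947554), had 66.7, 62.2, 58.3 and 45.8 CPM in HSC and 92.2, 73.4, 105 and 85.5 CPM in HPC. It was lower in every HSC library (−0.61 ± 0.14, adjusted p = 0.0025, edgeR). The protein is regulated mainly by its stability, which reads do not show. Of 9 tested partners and regulators 3 were higher and 2 lower, with a median of 0.16. Epas1, which encodes the related subunit HIF-2 alpha, had 5.86 ± 2.66 CPM in HSC, against 0.100 ± 0.167 CPM in HPC (5.71, adjusted p = 2.7e-05, edgeR), from 428 reads in HSC and 8 in HPC. Intron reads of Epas1, few at 8 to 17 per HSC library and 2 to 19 per HPC library, had no call (0.16, adjusted p = 0.9, edgeR). Hif3a had 9.59 ± 2.84 CPM in HSC and 2.20 ± 1.56 CPM in HPC. Egln3, a prolyl hydroxylase that marks these subunits for destruction, had 14.7 ± 3.86 CPM in HSC and 36.6 ± 4.61 CPM in HPC.

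Genes known to be induced by hypoxia outside glycolysis went both ways, with 2 of 12 tested higher, 3 lower and a median of 0.00. Ndrg1, a stress-response gene, had 30.4 ± 4.41 CPM in HSC, against 66.7 ± 10.8 CPM in HPC (−1.13). Car9, a cell-surface carbonic anhydrase, had 10.4 ± 1.57 CPM in HSC, against 20.1 ± 1.72 CPM in HPC (−0.96). Vegfa, the vascular growth factor, had 20.1 ± 2.37 CPM in HSC, against 11.04 ± 2.02 CPM in HPC (0.86).

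Other genes around the pathway were also split. Of 8 tested further glycolysis genes 2 were higher and 2 lower, with a median of 0.25. Ldhd, the D-lactate dehydrogenase, had 5.93 ± 1.05 CPM in HSC, against 0.901 ± 0.598 CPM in HPC (2.71, adjusted p = 6.9e-04, edgeR). Tigar, a fructose-2,6-bisphosphatase, had 4.40 ± 1.44 CPM in HSC, against 10.7 ± 1.51 CPM in HPC (−1.28), and Fbp1, a gluconeogenic phosphatase, had 11.5 ± 2.73 CPM in HSC, against 23.5 ± 2.68 CPM in HPC (−1.03). Of 7 tested transport genes 2 were higher and 3 lower, with a median of −0.79. Slc2a8, an intracellular glucose transporter, had 18.0 ± 0.507 CPM in HSC, against 8.24 ± 1.97 CPM in HPC (1.12), and Slc16a7, which encodes MCT2, had 9.96 ± 2.24 CPM in HSC, against 18.3 ± 3.37 CPM in HPC (−0.88). In the pentose phosphate pathway, which branches off after hexokinase, 1 of 8 genes was higher and 3 were lower, with a median of −0.18. The log2 change was 0.60 for Rpia, −0.53 for Pgls and −0.36 for Tkt, which encodes transketolase.

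Intron reads gave another readout of the same libraries, closer to unspliced RNA, though not an independent one. Of the 38 genes 35 could be tested, and 6 were called higher in HSC, 1 lower and 28 not called. Of all 12641 genes tested on intron reads, 21.1% were called, 11.0% higher and 10.1% lower. The called share of the 35, both directions together, was not above that background. The 6 were Pklr, Eno2, Ldhb, Pfkfb2, Pfkm and Ldha, and the lower one was Hk3. Pklr changed by 4.04 ± 0.49 on intron reads and by 3.83 ± 0.18 on exon reads, Ldhb by 1.16 ± 0.27 and 1.0 ± 0.10, and Hk3 by −1.22 ± 0.15 and −2.34 ± 0.16. Of the genes called on both kinds of read, 5 were higher in both and 1 was lower in both.

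Some abundant genes called on exon reads had no call on intron reads. Pkm introns had 70.5 CPM in HSC, against 67.9 CPM in HPC (0.05 ± 0.18, adjusted p = 0.88, edgeR), and Slc2a3 introns had 132 CPM in HSC, against 131 CPM in HPC (0.01 ± 0.13, adjusted p = 0.97, edgeR). Ldha was called higher on intron reads (0.48 ± 0.16, adjusted p = 0.045, edgeR) and had no call on exon reads. The difference between the 2 kinds of read was not tested for any gene. Pfkfb2 had 1964 to 2804 intron reads in each HSC library, against 1957 exon reads over all HSC libraries together. The source of these intron reads was not tested. Exons of Yod1 on the other strand overlap those of Pfkfb2 over 3.07% of their length.

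**Figure D5:**
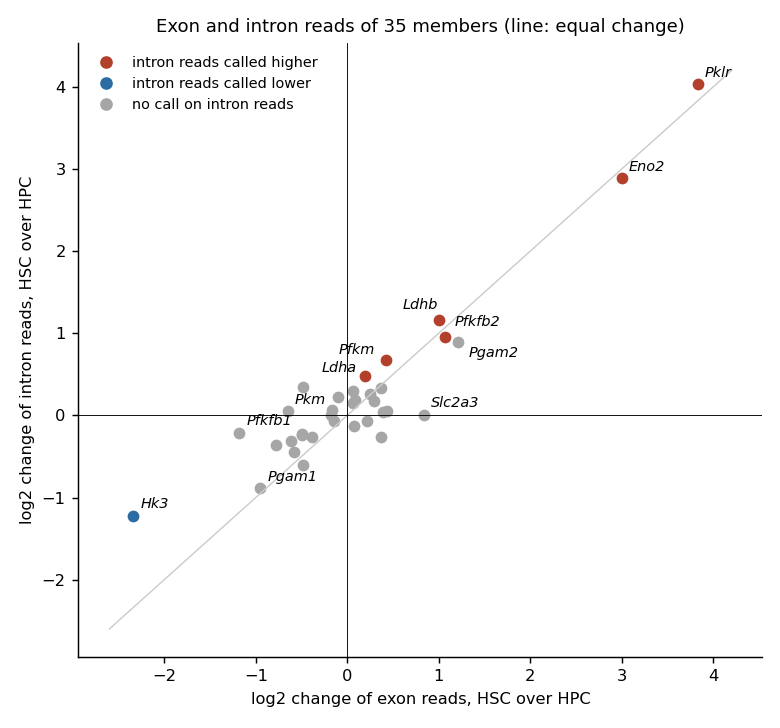
Change on intron reads against change on exon reads, both as log2 of HSC over HPC, for 35 genes tested on both; the grey line marks equal change. Pklr and Eno2 lie high on both axes and Hk3 low on both, while Pkm and Slc2a3 lie near 0 on intron reads.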

How the data were processed

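RNA-seq was deposited for 4 HSC and 4 HPC libraries, grouped by title. Per the file headers, the deposited tables give raw read counts in each row for exons, uniquely placed exon reads, introns and genes, with exon lengths. The build is mm10, per the submitters' processing notes. Which aligner and counter were run, and whether strand was used, is not given in the sources used here, so a gene and an overlapping neighbour cannot be told apart. Exon overlaps were read from GENCODE M21.

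Exon reads were summed per gene ID. edgeR 4.0.16 in R 4.3.3 was used with filterByExpr, TMM scaling and the quasi-likelihood test, HSC over HPC, without covariates. The Benjamini-Hochberg adjustment covered all 12751 tested genes, the threshold was 0.05, and the SE is the change over the square root of F. Intron reads were fitted likewise over all genes. Levels are TMM-scaled CPM, and isozymes of a step were compared per kilobase of exon. Shares and sums of a step were not tested. A count of 0 allows 3 reads, or 0.149 to 0.179 CPM, for counting error only, since PCR copies are not independent molecules. Alternatives were RLE and upper quartile scaling, no filter, a filter of 50 reads in 4 libraries, a replicate block, DESeq2 1.42.0, voom of limma 3.58.1, unique exon reads, gene reads, a threshold of 0.01 and leaving out each library; for shares, unique reads and raw read shares. The 38 genes, the lists and the tests were chosen with earlier results of these data known. Members averaging 5 CPM or more in either fraction are described with values. From each pathway list, up to 3 called genes of that level with the largest changes are named, and from each marker list the gene with the highest CPM over all libraries, not scaled by length. Protein sequences are not shown.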

Additional observations from a re-analysis of the deposited data

Results flagged for a closer look

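In 119 groups of 4 levels or shares, 8 had a library whose gap to the others exceeded Dixon's 95% critical value for 4 samples, where chance flags about 1 in 20. Slc2a1 had 26.74 CPM in HSC replicate 4, against 37.12 to 38.63 CPM in the other HSC libraries, and 34.19 CPM in HPC replicate 4, against 27.32 to 28.03 CPM in the other HPC libraries. Slc2a3 had 202.1 CPM in HSC replicate 3, against 127.5 to 138.4 CPM in the others. Pfkm had 54.87 CPM in HSC replicate 3, against 63.81 to 64.92 CPM, and a share of 15.5% of phosphofructokinase transcripts there, against 19.78% to 20.34%. Pfkp had 63.66 CPM in HSC replicate 4, against 74.44 to 75.6 CPM. The share of Pfkfb1 among PFKFB transcripts was 2.638% in HSC replicate 3, against 8.67% to 9.483%. Eno3 had 10.04 CPM in HPC replicate 1, against 12.1 to 12.47 CPM in the other HPC libraries.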

How the results depend on the processing

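Of the 21 called genes, 16 were called in the same direction under all 18 alternatives and 17 under all but the threshold of 0.01, apart from the filter of 50 reads in 4 libraries, which left 36 genes and so gave no value for the other two. No direction was reversed. Calls were lost in some alternatives for Hk1, Pfkm, Pfkfb1, Pgk1 and Slc16a1, the last at the threshold of 0.01 only. Calls were gained in some for Hk2, Slc2a1, Tpi1, Slc16a3, Pdk2, Pdp1 and Pdp2, and 10 of the 17 genes without a call kept none in all. The number of genes of the group called higher in HSC lay between 8 (threshold of 0.01) and 14 (upper quartile scaling), and when each library was left out between 9 and 13. The number called lower lay between 9 and 11 in both. With the replicate number as a block 12 were higher and 10 lower, and 2588 and 2448 of all genes. The labels do not say whether the numbers pair the libraries. Deviations of libraries with the same number correlated at −0.118 to 0.146 over 12751 genes, and not every library correlated best with its own number. So few libraries cannot settle whether they are paired. Upper quartile scaling moved the median of all genes by 0.077. Of 330 alternative values of shares 319 moved by less than the larger SD of either fraction, and 11 moved further. Leaving out a library cannot move a difference in shares that far, so those values could not differ by this measure. All 11 came from unique reads or raw read shares. Depth limits Pfkfb1, Pgam2 and Pdk4, which had under 5 CPM in both fractions.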
